A study of Mus musculus with 4 samples.

Results

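Plasmacytoid dendritic cell genes were examined in RNA from early B cells of mouse bone marrow. The 10 genes were taken by name (Siglech, Bst2, Tcf4, Cox6a2, Ccr9, Klk1, Pacsin1, Runx2, Ly6d and Tlr7) out of 55573 Ensembl identifiers, and each matched 1 identifier. The libraries KO 1 and KO 2 carry the genotype label ADAR1 KO, and WT 1 and WT 2 the label wild type. All 4 come from C57BL/6 mice of 8 to 12 weeks and from marrow cells sorted as Fr.C+C', the late pro-B and early pre-B fractions of Hardy's scheme. ADAR1, the Adar product, edits double-stranded RNA by deaminating adenosine. The labels do not say which exons of Adar were deleted, in which cells or how. The labels do not state that libraries of 1 genotype are from different animals, so a p-value here measures only how far these libraries spread, and that spread may be technical.

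Plasmacytoid dendritic cells are blood-borne sentinels that arise in bone marrow, detect viral RNA and DNA through endosomal Toll-like receptors, and can release large amounts of type I interferon. Their identity is set by the E protein E2-2, the product of Tcf4, and in the mouse they are recognised by the surface proteins Siglec-H and BST2. They share part of their programme with B cells, among it Tcf4, Ly6d, the factor Spib and the surface form B220, and B cells also use TLR7. The 10 genes are therefore typical of plasmacytoid dendritic cells without all being restricted to them. In sorted bulk RNA such as this, fewer cells of a type and less RNA per cell cannot be told apart, and the level of a gene cannot be assigned to a cell type.

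Promoters are shown for 4 of the genes, as the windows in which a known regulator of the gene could be looked for: Bst2 as the interferon-inducible member, Siglech and Ccr9 as surface proteins of the E2-2 programme, and Runx2 as a factor with its own kind of site. The RefSeq table on GRCm38.p6 held a promoter (250 bases before to 50 after the RefSeq start) for 6 of the 10, the other ones being Klk1 and Pacsin1. For Ccr9 that start lies 88772 bases downstream of the first base of the gene in GENCODE M21, whose interval is given with the values, so its window is not at the 5′ end of the GENCODE gene. The same distance is 29730 bases for Pacsin1. For Bst2, Siglech, Klk1 and Runx2 the RefSeq and GENCODE starts lie within 170 bases of each other. Capitals mark the interferon-stimulated response element in Bst2 (GAAA, then any pair of bases, then GAAA again), an E-box in Siglech and Ccr9 (CAGGTG, read as CACCTG from the opposite strand), and the RUNX core in Runx2 (TGTGGT, read as ACCACA from the opposite strand). Sequences run 5′ to 3′ on the strand of the gene.
Bst2, chr8:71537423-71537722, minus strand: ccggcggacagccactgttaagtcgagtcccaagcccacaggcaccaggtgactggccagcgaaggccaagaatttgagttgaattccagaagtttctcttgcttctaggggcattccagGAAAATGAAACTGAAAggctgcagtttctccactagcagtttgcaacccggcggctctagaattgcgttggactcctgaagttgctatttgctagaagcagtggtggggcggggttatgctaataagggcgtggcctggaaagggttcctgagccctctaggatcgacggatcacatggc
Siglech, chr7:55767934-55768233, plus strand: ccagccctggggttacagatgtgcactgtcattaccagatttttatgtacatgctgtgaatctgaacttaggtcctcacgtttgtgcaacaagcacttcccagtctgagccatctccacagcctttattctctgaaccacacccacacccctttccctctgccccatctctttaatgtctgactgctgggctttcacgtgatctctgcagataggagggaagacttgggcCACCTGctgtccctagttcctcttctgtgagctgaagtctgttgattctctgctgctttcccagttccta
Ccr9, chr9:123766961-123767260, plus strand: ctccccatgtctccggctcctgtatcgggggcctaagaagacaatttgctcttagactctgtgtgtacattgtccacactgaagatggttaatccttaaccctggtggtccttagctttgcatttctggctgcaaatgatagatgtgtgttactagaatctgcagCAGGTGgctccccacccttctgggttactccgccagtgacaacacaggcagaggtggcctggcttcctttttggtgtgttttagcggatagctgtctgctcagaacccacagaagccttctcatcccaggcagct
Runx2, chr17:44814578-44814877, minus strand: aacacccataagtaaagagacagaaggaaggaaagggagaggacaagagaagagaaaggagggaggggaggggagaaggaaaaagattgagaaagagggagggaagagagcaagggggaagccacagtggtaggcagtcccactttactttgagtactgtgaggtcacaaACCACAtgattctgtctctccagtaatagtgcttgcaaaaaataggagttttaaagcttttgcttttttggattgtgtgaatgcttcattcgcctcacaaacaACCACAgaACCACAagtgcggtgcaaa

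Both strands were searched in all 32851 promoters of the table. The response element was found in 1 of the 6 promoters, that of Bst2, and in 3.44% of all promoters. In Bst2 it matched at 130 and again at 124 bases before the start, as overlapping matches that form 1 run of capitals. The E-box was found in 4 of the 6 (Siglech, Bst2, Ccr9 and Klk1) against 20.2% of all promoters, and lay 20 bases before the start in Siglech and 85 before it in Ccr9. The RUNX core was found in 3 of the 6 (Runx2, Siglech and Pacsin1) against 16.8% of all promoters. A match describes letters in this window and is not a binding site shown by these data.

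Levels are given as FPKM, the fragments of a gene scaled by its exon length and by the size of that library. Estimated from the steps of the low values, between 15111806 and 15829693 fragments were assigned to genes in the KO libraries and between 15791746 and 16406403 in the WT libraries. Adar itself stood at 15.19 and 16.79 FPKM in KO 1 and KO 2, against 15.04 and 14.62 FPKM in WT 1 and WT 2. One value for the gene does not tell whether some of its exons are missing, so it is no check of the KO label, and every direction is that of the labels. The defining B cell markers Cd79a and Cd79b, whose values stand with the B-lineage genes, were expressed in every library. The KO libraries were less alike than the WT libraries, with an SD over genes of the within-pair log2 difference of 0.487 for KO and 0.322 for WT.

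All 10 genes were expressed in every library, with means over the 4 libraries between 2.45 FPKM for Ccr9 and 95.74 FPKM for Ly6d. Levels in FPKM are per length of all annotated exons of a gene together. That length is 27382 bases over 62 transcripts for Tcf4 and 744 bases over 1 transcript for Ly6d. The order of genes below is thus an order of FPKM that depends in part on annotation, and transcript numbers were not compared. Ly6d and Bst2 stood highest, at the 96.7th and 96.6th percentile of the 13281 genes tested, and their ranges over the libraries overlapped. Siglech came next, ahead of Cox6a2, Klk1, Runx2, Tlr7 and Tcf4, and each neighbouring pair in this order overlapped in range. Pacsin1 and Ccr9 were lowest and also overlapped. Gaps without overlap lay between Bst2 and Siglech and between Tcf4 and Pacsin1.

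**Figure D1:**
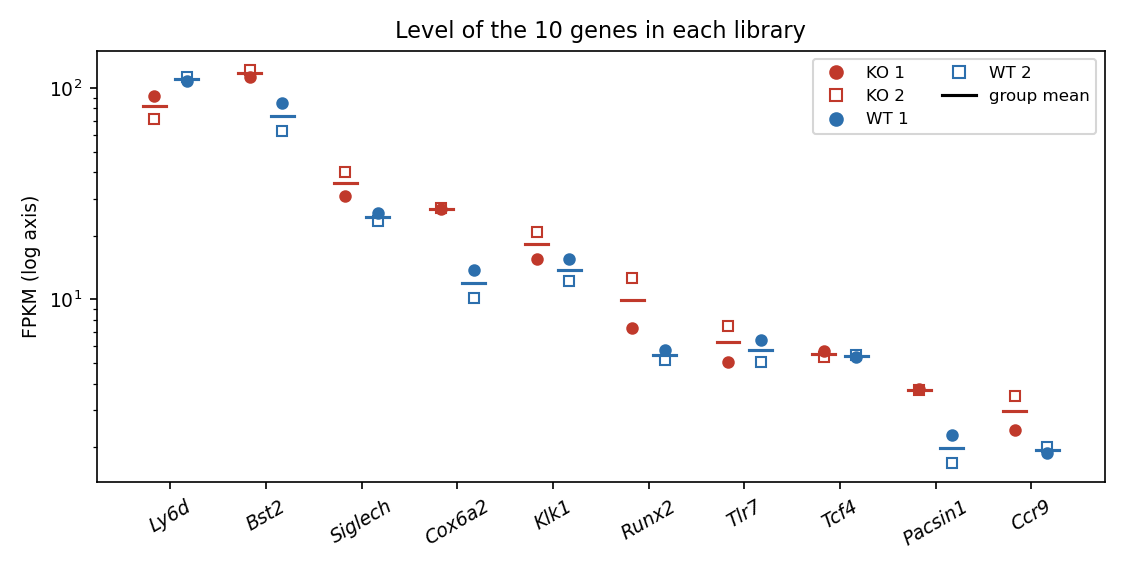
FPKM (log axis) of the 10 genes in KO 1, KO 2, WT 1 and WT 2, ordered by mean over the libraries, with a bar at each group mean. KO points lie above both WT points for 7 genes and below them for Ly6d, and they mingle for Tlr7 and Tcf4.

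Among the surface proteins, Siglech, Bst2 and Ccr9 were higher in both KO libraries and Ly6d was lower. Siglech encodes a lectin of the Siglec family that signals through the adaptor DAP12 and is the defining surface marker of the lineage in the mouse (ENSMUSG00000051504, GRCm38 chr7:55768178-55778925). Its level was 30.72 and 40.25 FPKM in KO 1 and KO 2, against 25.55 and 23.46 FPKM in WT 1 and WT 2. KO 2 was the highest library and the groups did not overlap. The means were 35.5 ± 6.74 FPKM in KO libraries and 24.5 ± 1.48 FPKM in WT libraries (SD, n = 2 each), 1.45 times the WT level, and the difference in log2(FPKM + 1), KO minus WT, was 0.51 ± 0.18 (SE; adjusted p = 0.383, limma), which did not pass the threshold of 0.05. Without KO 2 the difference was 0.32.

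Bst2 encodes tetherin, a membrane protein that holds budding virions at the cell surface and is induced by interferon in many cells (ENSMUSG00000046718, chr8:71534255-71537456). Its level was 112.91 and 121.04 FPKM in KO 1 and KO 2, against 84.45 and 62.40 FPKM in WT 1 and WT 2. Both KO libraries lay above both WT libraries, with a gap of 28.46 FPKM, and WT 2 was the lowest. The log2 difference was 0.68 ± 0.20 (adjusted p = 0.351, limma). Bst2 is the gene whose promoter held the response element above, and a part of that element in the difference was not tested.

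Ccr9 encodes the receptor for the chemokine CCL25, which guides cells to the gut and the thymus (ENSMUSG00000029530, chr9:123678439-123784330). It was at 2.42 and 3.51 FPKM in KO 1 and KO 2, and at 1.87 and 2.01 FPKM in WT 1 and WT 2. The groups did not overlap, and the KO mean was 1.53 times the WT mean. The log2 difference of 0.42 ± 0.21 had a 95% interval of -0.11 to 0.95 and stood at 0.22 without KO 2. With a pseudocount of 0.1 in place of 1 the log2 difference was 0.57 for Ccr9 and 0.52 for Siglech. The exons of Ccr9 share bases with 3 other annotated genes. AC165425.1 shares 1932 bases and Gm17200 shares 269, and neither was above 0.25 FPKM in any library. Slc6a20a shares 22 bases and was at 0.66 and 1.28 FPKM in KO libraries and 2.26 and 1.72 FPKM in WT libraries. Strand-specific counting is mentioned in neither labels nor headers, and a contribution of overlapping genes was not tested.

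Ly6d encodes a small GPI-anchored protein first made by B-cell-biased lymphoid progenitors and kept by plasmacytoid dendritic cells of lymphoid origin (ENSMUSG00000034634, chr15:74762056-74763620). Alone among the 10 it was lower in both KO libraries, at 92.06 and 71.63 FPKM in KO 1 and KO 2, against 107.26 and 112.00 FPKM in WT 1 and WT 2. The group means were 81.8 ± 14.5 FPKM in KO libraries and 109.6 ± 3.35 FPKM in WT libraries (SD, n = 2 each), and KO 2 was the lowest. The log2 difference of -0.43 ± 0.18 did not pass (adjusted p = 0.430, limma). It was -0.25 without KO 2, and 0.37 when libraries were scaled to their B-lineage genes. That scaling moved the median of all genes by 0.69, and relative to the median of all genes Ly6d was at -0.33 with the deposited scaling and -0.23 with the B-lineage scaling. B-lineage genes were lower in the same libraries, and their part in the value of Ly6d was not tested.

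Of the transcription factors, Tcf4 overlapped between the groups and Runx2 was higher in both KO libraries, chiefly in KO 2. Tcf4 (ENSMUSG00000053477, chromosome 18) was at 5.72 and 5.36 FPKM in KO 1 and KO 2 and at 5.36 and 5.45 FPKM in WT 1 and WT 2, the narrowest spread of the 10 genes. The groups overlapped. The log2 difference was 0.03 ± 0.14, with a 95% interval of -0.33 to 0.39. Each library held between 2220 and 2481 estimated Tcf4 fragments over 27382 bases of exon.

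Runx2 encodes a RUNX family factor best known from bone, which in plasmacytoid dendritic cells acts downstream of E2-2 and is needed in the mouse for their exit from the marrow (ENSMUSG00000039153, chr17:44495987-44814797). Its level was 7.30 and 12.58 FPKM in KO 1 and KO 2, against 5.74 and 5.19 FPKM in WT 1 and WT 2. The KO 2 value stood apart from the other libraries, and the groups did not overlap. The log2 difference was 0.72 ± 0.26 (adjusted p = 0.387, limma), made up of 0.36 in KO 1 and 1.07 in KO 2 against the WT mean. It passed without KO 1 (adjusted p = 0.0479), where the lone KO library is assumed to vary like the WT libraries, and with B-lineage scaling (adjusted p = 0.0403), settings in which 7.1% and 5.87% of all genes passed. The antisense gene Runx2os1, which shares 519 exon bases, was at 0.56 and 0.75 FPKM in KO libraries and at 0.24 and 0 FPKM in WT libraries, and its part in the Runx2 value was not tested.

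Partners and inhibitors of these factors showed no common direction. Of 9 E protein, Id protein and RUNX genes, 8 were tested and 0 passed in either direction. There were 4 positive and 4 negative, against 38.3% and 61.7% of all genes, and the median was -0.03, against -0.09 over all genes. In limma 0 of them had an unadjusted p under 0.05, against 12.5% of all genes. Tcf3, the E protein E2A of B cells, was at 187.51 and 90.17 FPKM in KO libraries and 173.60 and 172.56 FPKM in WT libraries. Id2, which restrains E2-2 and is kept low in plasmacytoid dendritic cells, was at 19.89 and 30.35 FPKM in KO libraries and 21.70 and 15.59 FPKM in WT libraries. Both overlapped between the groups, as did Id3, at 29.86 and 13.11 FPKM in KO libraries and 22.40 and 20.61 FPKM in WT libraries. Tcf12, the E protein HEB, was at 11.09 and 7.26 FPKM in KO libraries and 11.14 and 13.50 FPKM in WT libraries, and Id1 at 9.09 and 18.58 FPKM in KO libraries and 7.69 and 6.30 FPKM in WT libraries. These lay on opposite sides of the WT libraries. Runx3 was at 8.47 and 8.33 FPKM in KO libraries and 6.65 and 6.25 FPKM in WT libraries. Runx1 overlapped between the groups, at 12.01 and 9.39 FPKM in KO libraries and 9.72 and 10.90 FPKM in WT libraries, and Cbfb, the shared partner of RUNX factors, was at 67.41 and 52.06 FPKM in KO libraries and 73.65 and 73.39 FPKM in WT libraries.

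Tlr7, the X-linked gene of the endosomal receptor for single-stranded RNA, overlapped between the groups (ENSMUSG00000044583, chrX:167304929-167330558). It was at 5.07 and 7.45 FPKM in KO 1 and KO 2, against 6.45 and 5.06 FPKM in WT 1 and WT 2. KO 1 and WT 2 were low and nearly equal, and KO 2 was the highest. The log2 difference was 0.09 ± 0.22 (adjusted p = 0.846, limma), and its sign turned without KO 2 or without WT 2.

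Other genes of the endosomal pathway differed in both directions. Of 22 listed, 21 were tested and 0 passed in either direction, with a median of 0.05. There were 12 positive and 9 negative, against 38.3% and 61.7% of all genes. Both KO libraries lay above both WT libraries for 7, against 19.7% of all genes, and below them for 5, against 31.7%. An unadjusted p under 0.05 was reached by 3 in limma, against 12.5% of all genes. Tlr9, the receptor for unmethylated DNA, was at 7.37 and 8.78 FPKM in KO libraries and 7.57 and 7.72 FPKM in WT libraries, and Unc93b1, which carries these receptors to the endosome, at 147.82 and 130.18 FPKM in KO libraries and 131.89 and 128.96 FPKM in WT libraries. Both overlapped between the groups, as did Tlr8, at 3.36 and 5.40 FPKM in KO libraries and 3.94 and 3.92 FPKM in WT libraries. Tlr3, the receptor for double-stranded RNA, was below the filter, at 0.23 and 0.67 FPKM in KO libraries and 0.21 and 0.18 FPKM in WT libraries. Irf7, the factor that drives interferon genes in plasmacytoid dendritic cells and is itself induced by interferon, did not overlap, at 19.01 and 33.48 FPKM in KO libraries and 15.49 and 12.05 FPKM in WT libraries. Irak4, a kinase below the receptors, was at 9.79 and 12.45 FPKM in KO libraries and 7.5 FPKM in each WT library. The adaptor gene Myd88 was at 24.34 and 34.09 FPKM in KO libraries and 20.76 and 19.30 FPKM in WT libraries, and Tlr13, which detects bacterial ribosomal RNA, was at 9.94 and 16.39 FPKM in KO libraries and 6.59 and 7.93 FPKM in WT libraries. Lgmn went the other way, at 21.17 and 28.21 FPKM in KO libraries and 39.2 and 29.08 FPKM in WT libraries. Hsp90b1 did so too, at 154.93 and 135.91 FPKM in KO libraries and 175.05 and 179.93 FPKM in WT libraries. Slc15a4, Chuk and Ikbkb also lay below both WT libraries in both KO libraries. Of the genes named here, Irak4 had the smallest adjusted p (0.372, limma).

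Transcripts of the interferons themselves were almost absent. Of 20 type I and type III interferon genes 17 were listed at 0 in all 4 libraries and 0 reached the filter. Ifnb1 was listed at 0 in both KO libraries and in WT 1 and at 0.08 FPKM in WT 2. Of 27 genes induced by interferon, all 27 were positive and 20 lay above both WT libraries in both KO libraries, against 38.3% and 19.7% of all genes. In limma 0 passed and 12 had an unadjusted p under 0.05, against 12.5% of all genes. Their median was 0.73, with 0.34 for KO 1 and 1.07 for KO 2. Oas3, a sensor of double-stranded RNA that activates RNase L, was at 15.04 and 26.79 FPKM in KO libraries and 7.12 and 6.53 FPKM in WT libraries, and Oas2, of the same family, at 15.32 and 31.49 FPKM in KO libraries and 7.63 and 6.90 FPKM in WT libraries. The ubiquitin-like modifier gene Isg15 was at 23.62 and 37.53 FPKM in KO libraries and 15.93 and 13.08 FPKM in WT libraries. Bst2, which is not in that list, differed by 0.68, with 0.63 for KO 1 and 0.73 for KO 2, and a link to these genes was not tested.

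The largest difference of the 10 genes was in Cox6a2, which encodes a subunit of cytochrome c oxidase of heart and muscle that is also made by plasmacytoid dendritic cells (ENSMUSG00000030785, chr7:128205435-128206387). It was at 26.83 and 26.94 FPKM in KO 1 and KO 2, against 13.77 and 10.12 FPKM in WT 1 and WT 2. The KO libraries were nearly equal and lay above both WT libraries, with a gap of 13.06 FPKM. The means were 26.88 ± 0.0778 FPKM in KO libraries and 11.95 ± 2.58 FPKM in WT libraries (SD, n = 2 each), 2.25 times the WT level, with a log2 difference of 1.12 ± 0.18 (95% interval 0.66 to 1.59). It missed the threshold (adjusted p = 0.20, limma), also with the planned replicate block (adjusted p = 0.131, limma). With B-lineage scaling it passed (adjusted p = 0.00813, limma), as did 5.87% of all genes. A block chosen after seeing the data pairs KO 1 with WT 2 and KO 2 with WT 1, a pairing the labels do not give. Cox6a2 passed there too (adjusted p = 0.0395, limma), as did 1.6% of all genes. These values rest on about 289 and 277 fragments in KO 1 and KO 2 and on 148 and 113 in WT 1 and WT 2. Counting error alone gives 95% Poisson intervals of 23.8 to 30.1 FPKM in KO 1 and 11.6 to 16.2 FPKM in WT 1.

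A neighbouring gene and a related gene overlapped between KO and WT libraries. The antisense neighbour Itgad shares 70 of its 680 exon bases and was at 4.44 and 6.36 FPKM in KO libraries, against 11 and 5.63 FPKM in WT libraries. Cox6a1, the isoform of other tissues, was at 295.32 and 239.06 FPKM in KO libraries and 330.38 and 282.44 FPKM in WT libraries.

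Pacsin1 encodes an F-BAR protein that bends membranes in endocytosis and is needed for interferon production by plasmacytoid dendritic cells through TLR9 (ENSMUSG00000040276, chr17:27655509-27711482). It was at 3.77 and 3.73 FPKM in KO 1 and KO 2, against 2.29 and 1.69 FPKM in WT 1 and WT 2. As with Cox6a2 the KO libraries nearly coincided while the WT libraries differed from each other. The log2 difference was 0.68 ± 0.18 (adjusted p = 0.345, limma). Pacsin2, the family member found in most tissues, was at 28.58 and 29.57 FPKM in KO libraries and 27.31 and 27.40 FPKM in WT libraries, a log2 difference of 0.08 ± 0.13 (SE). Pacsin3 was below the filter, at 0.22 and 0.06 FPKM in KO libraries and 0.12 and 0.17 FPKM in WT libraries.

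Klk1 encodes tissue kallikrein, a serine protease that releases kinins (ENSMUSG00000063903, chr7:44225360-44229618). It was at 15.59 and 20.94 FPKM in KO 1 and KO 2, against 15.45 and 12.16 FPKM in WT 1 and WT 2. KO 1 and WT 1 differed by 0.14 FPKM, so the lack of overlap is slight, and the log2 difference of 0.37 ± 0.21 had an interval of -0.15 to 0.90 and stood at 0.17 without KO 2. Klk1 belongs to a cluster of near-identical mouse genes between which fragments can be split, so its value is uncertain. Klk1b27, the one Klk1b gene listed here that passed the filter, was at 4.05 and 2.38 FPKM in KO libraries and 3.49 and 2.06 FPKM in WT libraries.

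**Figure D2:**
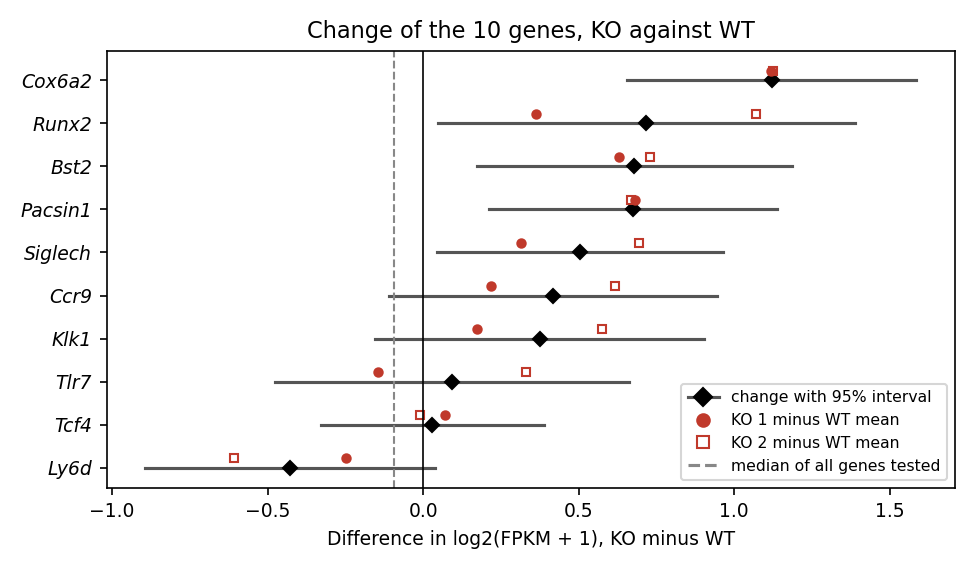
Difference in log2(FPKM + 1), KO minus WT, of the 10 genes with its 95% interval (diamond and line), with KO 1 and KO 2 each set against the WT mean (circle and square) and the median of all genes tested as a dashed line. Cox6a2 is farthest right at 1.12, and KO 2 lies to the right of KO 1 for 7 genes.

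As a group, 9 of the 10 genes were positive and 1 was negative, with a median difference of 0.46 against -0.09 over all genes, of which 38.3% were positive and 61.7% negative. Both KO libraries lay above both WT libraries for 7 of the 10, against a background of 19.7% of the 13281 genes tested, and below them for 1, against 31.7%. Of the 10, 0 passed in limma and 0 in voom, against 0.203% of all genes, all 27 of them lower in KO libraries and 0.0% higher. Without KO 1, 7.1% of all genes passed, and Runx2 did so among the 10. At an unadjusted p under 0.05 there were 5 of the 10, all positive, against 12.5% of all genes in either direction and 6.45% with a positive difference. All 10 passed the filter on low values, which asked for 1 FPKM on average in KO or in WT libraries. The genes were picked with earlier results of these data known, so these counts are a description.

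**Figure D3:**
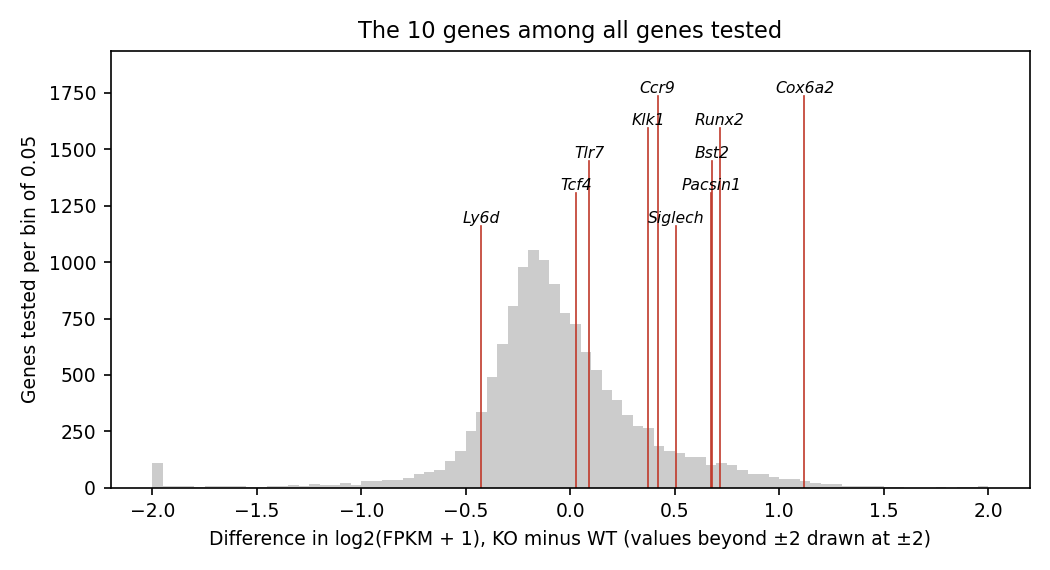
Histogram of the difference in log2(FPKM + 1), KO minus WT, over the 13281 genes tested, with a red line at each of the 10 genes. The bulk of genes lies around the median of -0.09, with Ly6d to its left and the other 9 genes to its right, and values beyond 2 in size are drawn in the end bins.

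The 2 KO libraries did not carry the difference equally. The median of the 10 genes was 0.27 in KO 1 and 0.64 in KO 2 against the WT mean, where the medians of all genes were -0.01 and -0.17. Cox6a2 (1.12 in KO 1 and 1.12 in KO 2), Pacsin1 (0.68 and 0.67) and Bst2 (0.63 and 0.73) were alike in both. Runx2, Siglech, Klk1 and Ccr9 were larger in KO 2, and Tlr7 was at -0.15 in KO 1 and 0.33 in KO 2. Among the lists with a higher median in KO 2 were neutrophil genes (0.46 in KO 1 and 1.5 in KO 2) and interferon-stimulated genes (0.34 and 1.07). Monocyte and macrophage genes (-0.24 and 0.80) and the further plasmacytoid genes (0.15 and 0.64) were others. B-lineage (-0.33 and -1.25), plasma cell, T and NK, and E, Id and RUNX medians were lower in KO 2. Ly6d was at -0.25 in KO 1 and -0.61 in KO 2.

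Ratios to Siglech within a library do not depend on how libraries are scaled, and they varied from gene to gene. Cox6a2 stood at 0.873 and 0.669 of the Siglech level in KO 1 and KO 2, against 0.539 and 0.431 in WT 1 and WT 2, without overlap. Ly6d stood at 2.997 and 1.78 times Siglech in KO libraries and at 4.20 and 4.77 times in WT libraries, and Tcf4 at 0.186 and 0.133 in KO libraries and 0.210 and 0.232 in WT libraries. Siglech itself was higher in both KO libraries, so a gene at a like level in all libraries, such as Tcf4, has a lower ratio in KO libraries. Tlr7 gave the same order, at 0.165 and 0.185 in KO libraries and 0.252 and 0.216 in WT libraries. Ratios of Bst2, Ccr9 and Klk1 overlapped between the groups, while those of Pacsin1 (0.123 and 0.0927 in KO libraries, 0.0896 and 0.0720 in WT libraries) and Runx2 (0.238 and 0.313 in KO libraries, 0.225 and 0.221 in WT libraries) did not overlap. That lack of overlap is slight, as KO 2 and WT 1 lay close for Pacsin1, and KO 1 and WT 1 for Runx2.

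A further list of 25 genes known from plasmacytoid dendritic cells gave a mixed picture. All 25 were tested and 0 passed in either direction in limma, with 3 at an unadjusted p under 0.05, against 12.5% of all genes. There were 18 positive, against 38.3% of all genes, and 7 negative, against 61.7%. Both KO libraries lay above both WT libraries for 15, against 19.7% of all genes, and below them for 4, against 31.7%. The median was 0.33, with 0.15 for KO 1 and 0.64 for KO 2. Klra17, the inhibitory receptor Ly49Q of mouse plasmacytoid dendritic cells, had the smallest p, at 6.62 and 10.37 FPKM in KO libraries and 3.34 and 4.04 FPKM in WT libraries (log2 difference 0.99 ± 0.24, adjusted p = 0.315, limma). Lag3, an inhibitory receptor shared with T cells, was at 5.21 and 6.65 FPKM in KO libraries and 4.08 and 3.23 FPKM in WT libraries.

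The transcription factors of that list went both ways. Irf8, needed by most dendritic cells, was at 57.41 and 52.67 FPKM in KO libraries and 48.29 and 45.10 FPKM in WT libraries. Spib, which B cells and plasmacytoid dendritic cells share, was at 138.54 and 59.85 FPKM in KO libraries and 160.50 and 188.13 FPKM in WT libraries, and Zeb2 at 8.18 and 6.49 FPKM in KO libraries and 8.39 and 10.94 FPKM in WT libraries. Bcl11a, also shared with B cells, overlapped between the groups, at 12.25 and 8.83 FPKM in KO libraries and 10.33 and 10.62 FPKM in WT libraries. Tyrobp, which encodes the Siglec-H adaptor DAP12 and is abundant in all myeloid cells, was at 331.64 and 592.94 FPKM in KO libraries and 255.79 and 252.97 FPKM in WT libraries.

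Markers of other cells also differed between these libraries. All 16 neutrophil genes were positive and 14 lay above both WT libraries in both KO libraries, against 38.3% and 19.7% of all genes, with a median of 0.46 for KO 1 and 1.5 for KO 2. The list took 3.57% and 7.04% of fragments in KO 1 and KO 2, against 2.64% and 2.47% in WT 1 and WT 2. The gelatinase gene Mmp9, with the smallest p of that list, was at 341.98 and 429.82 FPKM in KO libraries and 128.07 and 159.43 FPKM in WT libraries. Mmp8 was at 205.35 and 279.33 FPKM in KO libraries and 100.86 and 130.52 FPKM in WT libraries, and Retnlg at 1015.82 and 1689.68 FPKM in KO libraries and 512.77 and 586.32 FPKM in WT libraries. Elane, which neutrophil precursors make, overlapped between the groups, at 277.15 and 958.60 FPKM in KO libraries and 336.09 and 213.75 FPKM in WT libraries.

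Of 14 B-lineage genes 13 were negative and 8 lay below both WT libraries in both KO libraries, against 61.7% and 31.7% of all genes, and the median was -0.33 for KO 1 and -1.25 for KO 2. Cd79a, the Ig-alpha chain of the B cell receptor, was at 193.59 and 96.80 FPKM in KO libraries and 436.24 and 435.96 FPKM in WT libraries, and Cd79b, its partner, at 196.98 and 93.43 FPKM in KO libraries and 244.90 and 276.68 FPKM in WT libraries. Bank1, a scaffold of B cell receptor signalling, was at 1.23 and 1.53 FPKM in KO libraries and 2.90 and 3.10 FPKM in WT libraries, and Cd72, an inhibitory co-receptor, at 66.04 and 27.27 FPKM in KO libraries and 92.04 and 104.20 FPKM in WT libraries. The remaining genes of the list overlapped between the groups. Among them, Pax5 was at 90.21 and 42.91 FPKM in KO libraries and 86.51 and 102.41 FPKM in WT libraries. Ebf1 was at 32.52 and 17.23 FPKM in KO libraries and 30.7 and 36.54 FPKM in WT libraries. Vpreb1, the positive gene, was at 260.89 and 155.96 FPKM in KO libraries and 213.23 and 180.25 FPKM in WT libraries. Of the neutrophil and B-lineage genes 0 passed in limma, with 7 and 4 at an unadjusted p under 0.05, against 12.5% of all genes, and their part in the values of the 10 genes was not tested.

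Dendritic and myeloid lists other than neutrophils were mixed. Of 10 conventional dendritic cell genes 6 were tested, with a median of 0.13. Of these, 3 were positive and 3 negative, against 38.3% and 61.7% of all genes. Zbtb46, their defining factor, was below the filter, at 0.53 and 0.60 FPKM in KO libraries and 1.15 and 0.74 FPKM in WT libraries. The lectin gene Clec10a was at 5.36 and 7.23 FPKM in KO libraries and 4.10 and 3.55 FPKM in WT libraries. Ccr7, a homing receptor, and Dpp4, a surface peptidase, went the other way, Ccr7 at 14.01 and 6.32 FPKM in KO libraries and 15.74 and 19.65 FPKM in WT libraries and Dpp4 at 35.16 and 20.09 FPKM in KO libraries and 38.70 and 45.07 FPKM in WT libraries.

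Of 10 monocyte and macrophage genes 7 were positive, against 38.3% of all genes, and the median was -0.24 for KO 1 and 0.80 for KO 2. Lyz2, the lysozyme gene, was at 2950.21 and 5533.43 FPKM in KO libraries and 2117.79 and 2152.82 FPKM in WT libraries. Ly6c2, a monocyte surface gene, was at 104.16 and 228.06 FPKM in KO libraries and 84.05 and 71.63 FPKM in WT libraries, and F13a1 at 12.91 and 24.40 FPKM in KO libraries and 9.78 and 10.80 FPKM in WT libraries. Csf1r, the receptor for macrophage growth factor, overlapped between the groups at 12.98 and 28.10 FPKM in KO libraries and 23.54 and 17.04 FPKM in WT libraries. Of 10 T and NK cell genes tested 5 were positive and 5 negative, against 38.3% and 61.7% of all genes. Their median was 0.04, against -0.09 over all genes. Cd3e was at 0.85 and 0.55 FPKM in KO libraries and 0.67 and 0.54 FPKM in WT libraries. Il2rb was at 11.53 and 12.03 FPKM in KO libraries and 9.05 and 8.87 FPKM in WT libraries, Cd2 at 8.45 and 3.49 FPKM in KO libraries and 8.25 and 12.32 FPKM in WT libraries, and Cd3g at 0.85 and 0.38 FPKM in KO libraries and 1.16 and 1.06 FPKM in WT libraries.

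Of 7 plasma cell genes tested 6 were negative, against 61.7% of all genes, with a median of -0.98 that was -1.41 without KO 1 and -0.30 without KO 2. Of these 1 passed the threshold as lower, Jchain, at 0.25 and 0.45 FPKM in KO libraries against 105.85 and 91.45 FPKM in WT libraries (adjusted p = 0.00135, limma). Tnfrsf17, the receptor BCMA, was listed at 0 in both KO libraries and at 2.17 and 1.79 FPKM in WT libraries, and Derl3 was at 2.09 and 0.90 FPKM in KO libraries and 4.86 and 3.33 FPKM in WT libraries. All 8 erythroid genes tested were negative, against 61.7% of all genes. Their median of -0.90 ranged between -1.38 and -0.53 when 1 library was left out. Hba-a1, an alpha globin, was at 110.71 and 213.36 FPKM in KO libraries and 450.46 and 273.06 FPKM in WT libraries, and Hbb-bs, a beta globin, at 102.67 and 208.79 FPKM in KO libraries and 437.04 and 243.97 FPKM in WT libraries, with Hba-a2 at 19.59 and 25.58 FPKM in KO libraries and 62.52 and 30.32 FPKM in WT libraries. The alpha globin copies are near-identical, so their values are uncertain. Of the conventional dendritic, monocyte, T and NK and erythroid genes 0 passed in limma. An unadjusted p under 0.05 was reached by 1 of 6, 0 of 10, 1 of 10 and 3 of 8 tested, in that order. The share over all genes was 12.5%.

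**Figure D4:**
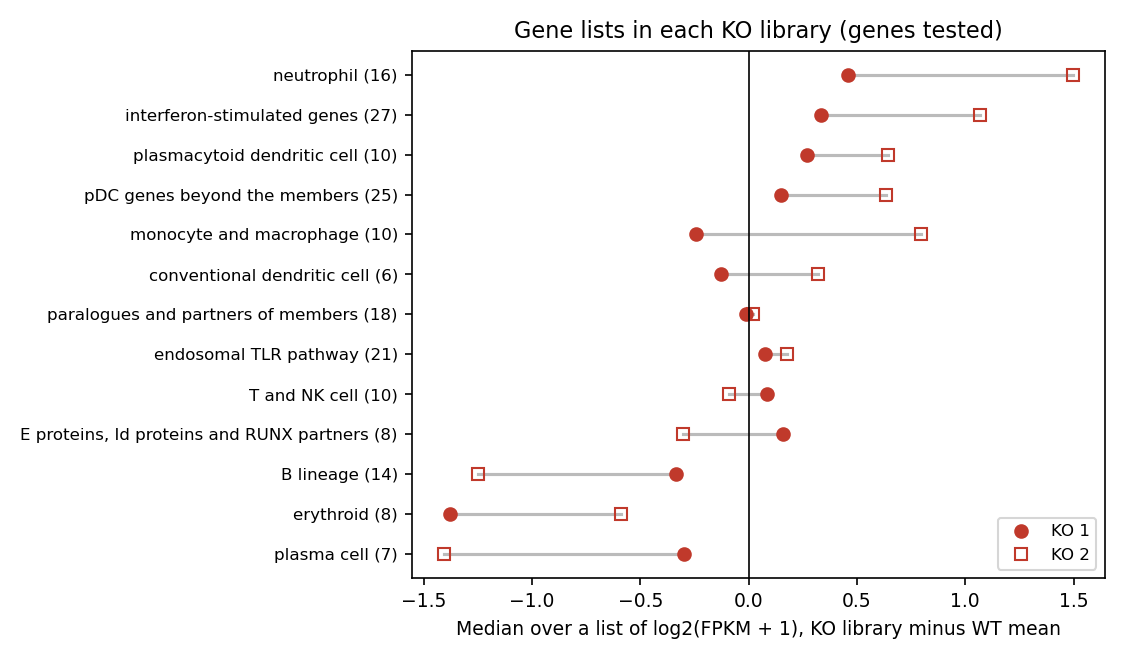
Median over each list of the difference in log2(FPKM + 1) between a KO library and the WT mean, for KO 1 (circles) and KO 2 (squares), with the number of genes tested in brackets. The plasmacytoid dendritic cell genes lie at 0.27 and 0.64, between the interferon-stimulated genes above and the further genes of the lineage below, while B-lineage genes lie at -0.33 and -1.25.

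The genes with a pattern most like that of Siglech were not among the other 9. By Euclidean distance over the 4 libraries, after subtracting the WT mean of each gene on the log2(FPKM + 1) scale, the nearest 5 were Slc16a6, Gbp2, Ms4a8a, Tkt and Ctdspl, at distances from 0.03 to 0.05. As many as 283 of the genes tested lay within 0.2. The nearest of the other 9 genes was Ccr9, at a distance of 0.18, followed by Klk1 at 0.23, and the farthest was Ly6d at 1.42.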

How the data were processed

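RNA from sorted Fr.C+C' bone marrow cells of 2 libraries labelled ADAR1 KO and 2 labelled wild type was measured by RNA sequencing. Per the file headers, the values the authors deposited are FPKM, 1 per gene and library with 2 decimals. The build is mm9 per the submitters' processing notes. The aligner, counter and annotation were not given in the sources used here. A symbol was found for 55394 of 55573 identifiers. Coordinates are GRCm38 positions of GENCODE M21, since the files give none.

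FPKM times the union exon length of GENCODE M21 fell on whole fragments, within 0.15, in 99.4% to 99.6% of the values checked per library, where chance gives 30%. These lengths are of an annotation on GRCm38, while the processing notes name mm9, and that difference was not resolved. Fragment numbers are estimates from these steps, and their intervals cover counting error only.

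Differences were tested with limma 3.58.1 (R 4.3.3, mean-variance trend, no covariate, two-sided) on log2(FPKM + 1), a scale that understates changes of low genes, over the 13281 genes that reached 1 FPKM on average in KO or in WT libraries. Benjamini-Hochberg adjustment ran over all of these, and an adjusted p under 0.05 passed. An exact permutation test of 2 against 2 libraries cannot go below 0.333. The procedure was run on simulated data with the same spread in both groups, unlike these libraries. That run therefore gives no rate of missed or false calls here. Alternatives covered the pseudocount, filters, scalings, trend, blocks, single libraries left out and voom on estimated fragments.

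The members and lists were chosen with earlier results of these data known. Named were the 10 members, Adar, the 5 genes nearest to Siglech and any gene that passed. The 3 tested genes with the smallest p in each list were named too. Some B-lineage and endosomal genes with another direction than those were added afterwards. A set of partners and markers was named as well. One gene of that set is not reported here.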

Additional observations from a re-analysis of the deposited data

How the results depend on the processing

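Of the 10 genes, 0 passed under the deposited scaling, and 27 of all genes tested did. All genes that passed numbered 15 with a pseudocount of 0.1, 0 without a filter on low values, 780 with B-lineage scaling (649 higher and 131 lower), 9 with voom on estimated fragments (9 lower, 0 of the 10 genes or of the lists other than plasma cell), and from 0 (without KO 2) to 948 (without KO 1) when 1 library was left out (higher from 0 to 563, lower from 0 to 385). The number higher was 1 with a filter of 5 FPKM and 1 without the mean-variance trend. The labels give no pairing by replicate number. The differences KO 1 minus KO 2 and WT 1 minus WT 2 correlated at -0.149 across genes. This cannot decide on a pairing, since the KO libraries differed more from each other (SD 0.487, against 0.322 for WT). With the replicate block 68 genes passed (7 higher and 61 lower). A crossed replicate block, chosen after seeing the data, gave 213 (46 higher and 167 lower), and Cox6a2 passed at 1.12. B-lineage scaling gave 1.88 for Cox6a2 and 1.43 for Runx2, which passed, and 0.37 for Ly6d, which turned its sign. Leaving out 1 library gave -0.0101 to 0.0693 for Tcf4, 0.36 to 1.07 for Runx2 and -0.15 to 0.33 for Tlr7. It gave medians of 0.014 to 0.18 for the endosomal pathway, 0.021 to 0.087 for paralogues, -0.46 to 0.37 for conventional dendritic genes and -0.16 to 0.082 for T and NK genes. The cause was not tested. Under B-lineage scaling the median of all genes was 0.59, and list medians are to be read against it. The list median was 1.20 for the 10 genes, 1.09 for the further plasmacytoid genes and 0.79 for the endosomal pathway. It was 0.71 for E, Id and RUNX genes, 0.75 for paralogues and 1.42 for interferon-stimulated genes. Neutrophil genes were at 1.77, conventional dendritic genes at 0.77 and T and NK genes at 0.62. Plasma cell genes were at -0.19 and erythroid genes at -0.12. B-lineage genes, which themselves set this scaling, were at -0.13. The paralogue median was 0.065 without a filter, -0.024 with 5 FPKM, 0.16 with quantile normalization, 0.16 with median centring and 0.13 after rescaling without neutrophil genes, and the T and NK median -0.11 with 5 FPKM. With 2 libraries a group, small differences were not detectable, and larger ones could miss the threshold as well. Under the deposited scaling 0 genes passed as higher in KO libraries, and Cox6a2 missed at 2.25 times the WT level (adjusted p = 0.20, limma).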

Other observations

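Siglec family members and other relatives of the 10 genes did not share a direction. Of 30 paralogues and partners, 18 were tested and 0 passed in limma, 4 having an unadjusted p under 0.05, against 12.5% of all genes. Of the 18, 10 were positive and 8 negative, against 38.3% and 61.7% of all genes, and the median was 0.09. Siglece, an inhibitory lectin of myeloid cells, was at 32.03 and 62.44 FPKM in KO libraries and 20.23 and 18.81 FPKM in WT libraries, and Cd33, also myeloid, at 23.40 and 36.50 FPKM in KO libraries and 17.22 and 18.15 FPKM in WT libraries. Siglecg, the inhibitory lectin of B cells, lay below both WT libraries in both KO libraries, at 46.25 and 29.69 FPKM in KO libraries and 63.73 and 70.22 FPKM in WT libraries. Ccl25, the ligand of CCR9, was below the filter, at 1.02 and 0.84 FPKM in KO libraries and 0.76 and 0.93 FPKM in WT libraries.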
